A study of Homo sapiens with 36 samples.

Results

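The genes described here are 39 targets of the hypoxia-inducible factor (HIF) and enzymes of glycolysis, a list of symbols looked up in the 4 deposited count tables, out of 20633 genes named in any of them. All 39 were in both MDA-MB-231 tables and 37 were in both 293T tables, where CA9 and ANGPTL4 had no row, and each one present passed the filter on low counts. No measured value chose the symbols from the tables, although the list was drawn up with earlier results of these data known. It holds 15 core glycolytic enzymes (HK1, HK2, GPI, PFKL, PFKP, ALDOA, ALDOC, TPI1, GAPDH, PGK1, PGAM1, ENO1, ENO2, PKM and LDHA) and 24 other members. The others are the glucose transporters SLC2A1 and SLC2A3, the regulators PFKFB3, PFKFB4, PDK1 and PDK3, the carbonic anhydrases CA9 and CA12, the secreted factors VEGFA, ADM, ANGPTL4 and STC2, the mitochondrial proteins BNIP3, BNIP3L and FAM162A, the signalling, transcription and ubiquitin ligase factors NDRG1, ANKRD37, MXI1, BHLHE40, WSB1 and DDIT4, and the endoplasmic reticulum and glycogen genes INSIG2, ERO1L and GBE1.

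The study measured RNA by sequencing in 36 libraries of 2 established human cell lines, the embryonic kidney line 293T and the breast cancer line MDA-MB-231. Each line had an experiment with siRNA against EglN2, a prolyl hydroxylase, and another with shRNA against KDM5A, a demethylase of histone H3 lysine 4. The series concerns a link from EglN2 through hydroxylated proline 16 of histone H3 to KDM5A and to methylation of lysine 4. The labels name no change of oxygen, so these are levels in DMEM with serum under each RNA reagent. The 12 groups of 3 libraries are, in each line, control siRNA (siControl), EglN2 siRNA 1 and 2 (siEglN2-1, siEglN2-2), control shRNA (shControl) and KDM5A shRNA 1 and 2 (shKDM5A-1, shKDM5A-2). Both reagents to a target share their controls, so their comparisons are not independent of each other. Each line is 1 established line, and separate cultures are not stated for the libraries of a group, so p-values measure the spread between these libraries, which may be technical.

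HIF is a transcription factor of an oxygen-regulated alpha subunit and a stable beta subunit (ARNT). Prolyl hydroxylases of the EglN family mark the alpha subunit for VHL-directed destruction when oxygen is present, and in hypoxia the stabilised factor binds short sequences near its targets and raises genes for glucose uptake, glycolysis, lactate formation, pH control, blood vessel growth and mitophagy. Among the family EglN1 is the main oxygen-dependent regulator of HIF1A, while EglN2 has other substrates as well. KDM5A removes methyl groups from H3 lysine 4, also with oxygen as a cosubstrate, and tumour lines such as MDA-MB-231 are known for high glycolysis even where oxygen is present.

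The short sequence HIF binds has the core ACGTG or GCGTG. Promoters of some members that fell with KDM5A shRNA in MDA-MB-231 are printed, with PGAM1 as a member without the core. They were picked by their changes, so they cannot show whether a core goes with a fall. Members not printed held cores too, such as HK2 (3 and 6 matches in its windows) and STC2 (3), which both rose with shKDM5A-2. The sequences are from RefSeq on GRCh38.p14, 5′ to 3′ on the strand of the gene, and cover the 250 bases before the start site. Capitals mark each match to ACGTG or GCGTG on either strand, so CACGTG counts as a match on both strands.
LDHA (chr11:18394313-18394562, plus strand): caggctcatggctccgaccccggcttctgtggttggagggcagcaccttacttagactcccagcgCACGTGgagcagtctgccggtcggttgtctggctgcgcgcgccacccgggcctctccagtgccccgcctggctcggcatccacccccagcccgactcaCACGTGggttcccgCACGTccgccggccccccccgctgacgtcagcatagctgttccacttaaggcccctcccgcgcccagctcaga
PGK1 (chrX:78103998-78104247, plus strand): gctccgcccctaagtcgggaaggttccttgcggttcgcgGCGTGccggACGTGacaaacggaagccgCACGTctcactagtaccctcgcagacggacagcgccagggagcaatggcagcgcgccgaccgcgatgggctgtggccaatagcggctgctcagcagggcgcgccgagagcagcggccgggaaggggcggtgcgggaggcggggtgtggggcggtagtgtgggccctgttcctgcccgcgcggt
CA9 (chr9:35673678-35673927, plus strand): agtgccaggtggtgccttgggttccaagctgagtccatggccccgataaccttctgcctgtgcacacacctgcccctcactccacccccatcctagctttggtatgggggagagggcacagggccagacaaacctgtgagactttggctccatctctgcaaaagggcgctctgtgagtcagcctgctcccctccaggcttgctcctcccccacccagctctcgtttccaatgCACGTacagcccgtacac
ANKRD37 (chr4:185396591-185396840, plus strand): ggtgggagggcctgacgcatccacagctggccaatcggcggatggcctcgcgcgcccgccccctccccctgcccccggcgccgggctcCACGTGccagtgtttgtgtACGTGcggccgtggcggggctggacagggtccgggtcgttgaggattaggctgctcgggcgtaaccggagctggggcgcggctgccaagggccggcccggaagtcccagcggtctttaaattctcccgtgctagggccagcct
BNIP3 (chr10:131981924-131982173, minus strand): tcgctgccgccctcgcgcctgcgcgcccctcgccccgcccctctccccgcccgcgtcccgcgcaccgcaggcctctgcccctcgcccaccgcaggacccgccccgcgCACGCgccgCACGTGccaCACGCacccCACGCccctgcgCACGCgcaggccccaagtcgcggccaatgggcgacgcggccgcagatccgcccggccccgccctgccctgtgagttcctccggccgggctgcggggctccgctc
BHLHE40 (chr3:4979187-4979436, plus strand): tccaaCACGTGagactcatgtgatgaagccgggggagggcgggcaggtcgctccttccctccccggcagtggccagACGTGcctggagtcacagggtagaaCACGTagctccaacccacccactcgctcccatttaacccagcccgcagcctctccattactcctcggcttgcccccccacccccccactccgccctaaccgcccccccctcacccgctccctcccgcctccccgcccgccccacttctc
PGAM1 (chr10:97427568-97427817, plus strand): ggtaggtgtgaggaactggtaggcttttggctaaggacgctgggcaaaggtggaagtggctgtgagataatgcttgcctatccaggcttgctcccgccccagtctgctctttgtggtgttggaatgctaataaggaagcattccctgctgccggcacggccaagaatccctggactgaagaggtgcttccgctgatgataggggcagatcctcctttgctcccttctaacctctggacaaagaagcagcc
BNIP3 held 6 matches in these bases, LDHA 5, BHLHE40 4, ANKRD37 and PGK1 3 each, CA9 1 and PGAM1 0. LDHA has 2 windows, and the window of its other start site held 1 match, to GCGTG. The single CA9 match was centred 16 bases before the start, whereas within the bases printed the nearest LDHA match lay 71 bases and the nearest PGK1 match 181 bases before it. Windows of 300 bases (250 before to 50 after the start) were at hand for 34 members, of which 33 (97.1%) held either core in at least 1 window, against 52.4% of 27305 genes with a window. The stricter ACGTG core was in 24 members (70.6%), against 24.9% of genes. It was in 10 of 15 core enzymes and in 14 of the 19 other members with a window. Per window, the share with either core was 79.2% for 53 member windows and 48.4% for 35116 windows of all genes, since some genes have several. No window was at hand for SLC2A3, VEGFA, BNIP3L, NDRG1 and ERO1L. The list was chosen as HIF targets and glycolysis enzymes, and the genes beside it were not matched to it, so the shares were not tested. A match is a description of letters and does not show that HIF binds there. Whether matches go with fold changes was not tested.

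Values are library-scaled read levels in CPM units (a gene's count over the library's total, times a fixed number), made from the deposited expected counts after scaling of the libraries, and describe each gene against the same gene in other libraries; levels are not compared between genes, since no gene length was used. A gene was called when the Benjamini-Hochberg adjusted p of edgeR's quasi-likelihood test over all genes was under 0.05, two-sided, and every adjusted p below is of that kind. Log2 fold changes are given with their standard errors (SE). In a culture, fewer cells with a transcript and less of it per cell cannot be told apart. Reads of close copies are uncertain for GAPDH, PGK1, PGAM1, ENO1, LDHA and TPI1, which have many processed pseudogenes, and the labels do not state stranded counting, so overlapping antisense reads are not separable.

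Total counts per library ran from 14361214 to 27592132. EGLN2 fell in both lines with both siRNAs, from 105, 106 and 106 CPM in the MDA-MB-231 controls to between 20.8 and 25.1 CPM in the 6 siEglN2 libraries. KDM5A fell with both shRNAs in both lines, by 1.57 and 1.42 on the log2 scale in MDA-MB-231 and by 1.30 and 1.08 in 293T. Of 10 markers chosen for 293T, 8 were in the 293T tables, 5 reached 10 CPM in every 293T library, and 0 were in the MDA-MB-231 tables. Of 10 MDA-MB-231 markers, 10 reached 10 CPM in every MDA-MB-231 library. However, 8 of these were also in the 293T tables, and 3 (VIM, MSN and LOX) reached 10 CPM in every 293T library. Of 10 markers of other cell types only COL1A1 reached 10 CPM in every library of an experiment. The siControl library without a replicate number in 293T differed from the other 2 controls far beyond counting noise (a chi-square over genes, divided by its degrees of freedom, of 19.2 and 22.9, where the others gave 1.99), and siControl 1 of MDA-MB-231 did so less (6.71 and 7.65, where the others gave 1.56). Counts of all members against controls and between lines are given without them too. So are some single members, but not all, where leaving one out changed a call or moved the value by more than 1.5-fold. Counts in the lists of other pathway genes rest on all libraries.

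KDM5A shRNA in MDA-MB-231 lowered most of the list. Under shKDM5A-1 31 of the 39 fell and 3 rose, and under shKDM5A-2 35 fell and 2 rose. Over all genes tested, 55.3% and 59% were called, with near equal shares in each direction (27.2% lower and 28.1% higher for shKDM5A-1, 29.6% lower and 29.4% higher for shKDM5A-2). The median log2 fold change of the members was -0.39 and -0.59, where that of all genes was -0.00 and 0.00. Falls of 1.5-fold or more were called for 15 and 20 members, against 8.33% and 9.67% of all genes.

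With shKDM5A-1 the other HIF targets had a median of -0.66 with 20 of 24 lower, and the core enzymes a median of -0.24 with 11 of 15 lower. With shKDM5A-2 the medians were -0.67 and -0.57, with 22 of 24 and 13 of 15 lower. Falls of 1.5-fold or more were 13 of the other members with either reagent, and 2 then 7 of the core enzymes. No test was made of the difference between these groups of genes.

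**Figure D1:**
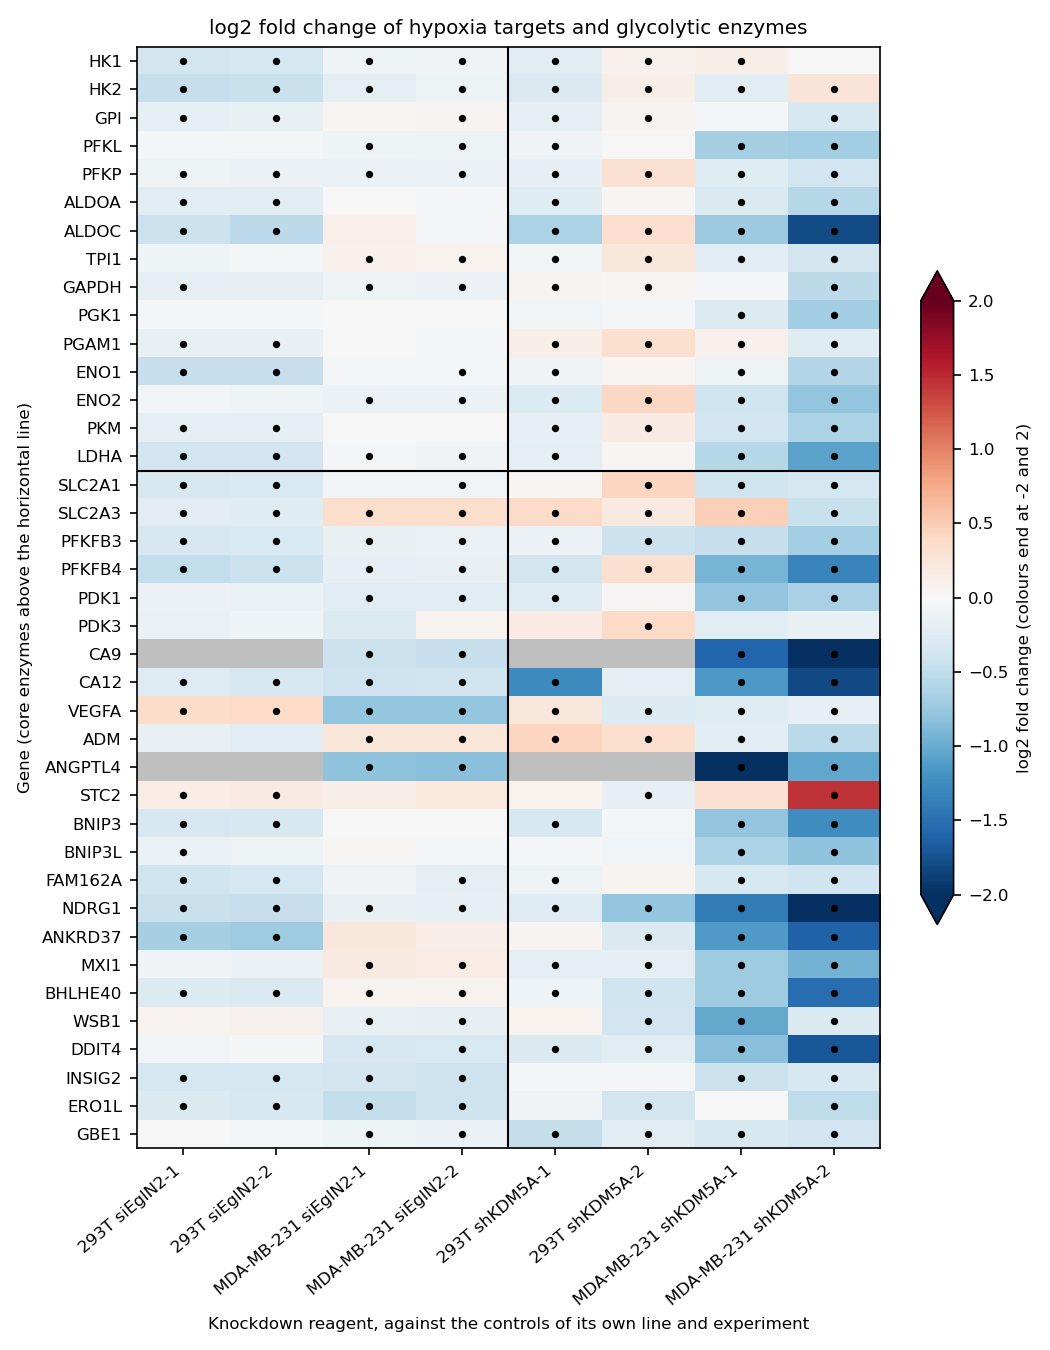
Log2 fold change of each of the 39 genes (rows, core enzymes above the horizontal line) in the 8 comparisons of a reagent with its controls (columns), coloured from -2 to 2, with a dot where the adjusted p was under 0.05 and grey where the gene had no row. The darkest column pair is KDM5A shRNA in MDA-MB-231, where 31 and 35 members fell.

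Among the enzymes in MDA-MB-231, lactate dehydrogenase A (LDHA), which turns pyruvate into lactate, had 2319, 2354 and 2375 CPM in the shControl libraries, 1568, 1564 and 1616 under shKDM5A-1, and 1122, 1107 and 1127 under shKDM5A-2. The 3 groups did not overlap and each reagent had its own level. The log2 fold changes were -0.57 (SE 0.02, adjusted p = 2.2e-21) and -1.07 (SE 0.02, adjusted p = 4.59e-29). Phosphoglycerate kinase 1 (PGK1), the first ATP-making step of glycolysis, had 989, 991 and 988 CPM in controls, 805, 812 and 837 under shKDM5A-1, and 616, 602 and 606 under shKDM5A-2. Its order was the same, with log2 fold changes of -0.27 (SE 0.02, adjusted p = 1.16e-12) and -0.70 (SE 0.02, adjusted p = 2.82e-23). GAPDH, the enzyme before PGK1, had 2704, 2679.5 and 2704 CPM in controls, 2616, 2589.8 and 2702 under shKDM5A-1, and 1895, 1886 and 1845 under shKDM5A-2. The shKDM5A-1 libraries overlapped the controls and those of shKDM5A-2 lay below both. GAPDH changed by -0.03 (SE 0.02, adjusted p = 0.172) with shKDM5A-1, which missed the threshold, and by -0.52 (SE 0.02, adjusted p = 9.13e-21) with shKDM5A-2.

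The brain-type aldolase ALDOC had 1.21, 2.18 and 1.63 CPM in controls, 1.14, 0.723 and 1.17 under shKDM5A-1, and 0.524, 0.269 and 0.648 under shKDM5A-2. All knockdown libraries were below all controls. Its log2 fold changes were -0.73 (SE 0.30, adjusted p = 0.0368) and -1.80 (SE 0.34, adjusted p = 2.95e-05), and the shKDM5A-1 call was lost in 4 of 16 alternative analyses (adjusted p from 0.0177 to 0.224 over them), which were DESeq2 and leaving out shControl 2, shControl 3 or the second shKDM5A-1 library. The liver-type phosphofructokinase PFKL fell by 0.67 and 0.69 on the log2 scale, pyruvate kinase PKM by 0.38 and 0.63, aldolase A (ALDOA) by 0.29 and 0.57, and the neuronal enolase ENO2 by 0.39 and 0.79. The main enolase ENO1 fell by 0.10 with shKDM5A-1 and by 0.59 with shKDM5A-2, and phosphoglucose isomerase (GPI) was at -0.03, not called, and then fell by 0.32. PGAM1, a mutase, rose by 0.09 with shKDM5A-1 and fell by 0.24 with shKDM5A-2. Hexokinase 2 (HK2), an inducible enzyme of the entry step, had 149, 144 and 143 CPM in controls, 127, 125 and 125 under shKDM5A-1 and 173, 173 and 174 under shKDM5A-2, so it lay below the controls with one reagent and above them with the other. HK1, the common hexokinase, rose by 0.11 with shKDM5A-1 and was not called with shKDM5A-2.

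The 15 enzymes together took 1.43% of counts in the MDA-MB-231 shControl libraries (1.41% to 1.45%), 1.18% with shKDM5A-1 (1.16% to 1.21%) and 0.983% with shKDM5A-2 (0.977% to 0.990%). Over the other 3 experiments the lowest group mean was 1.08%, and in 293T the mean was 1.205% with shControl, 1.101% with shKDM5A-1 and 1.28% with shKDM5A-2. These shares were not tested.

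**Figure D2:**
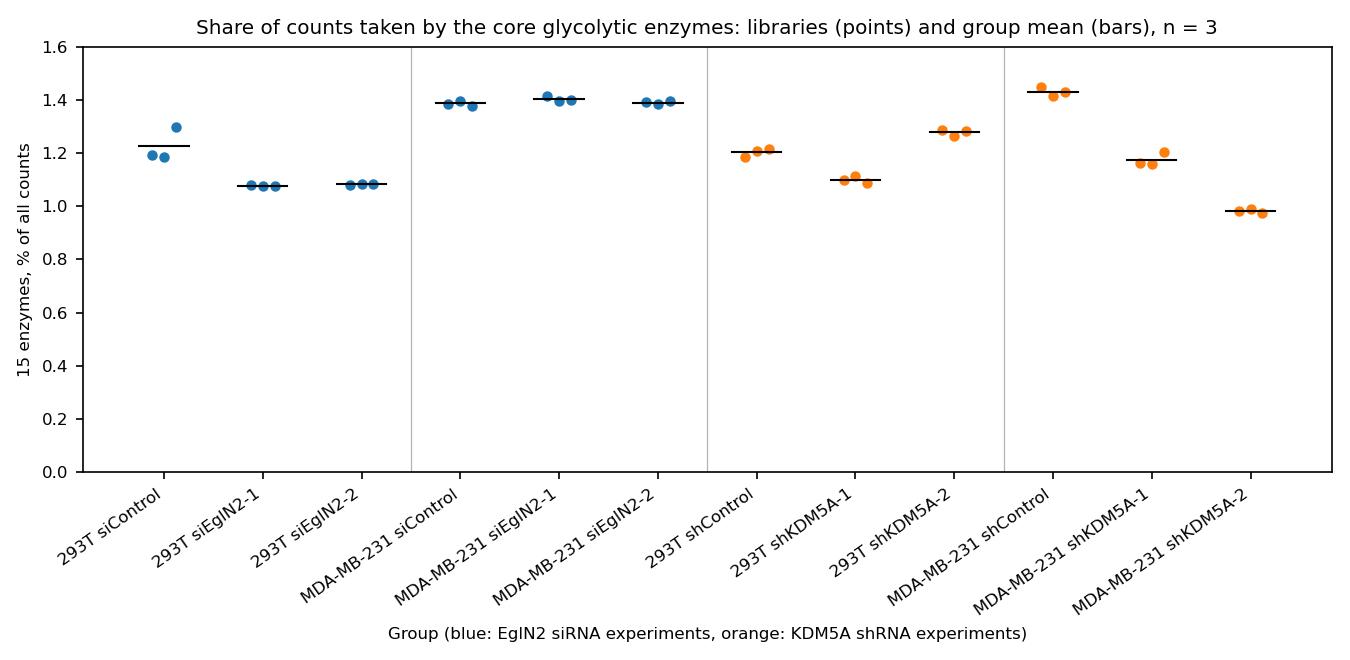
Percent of each library's counts taken by the 15 core enzymes together, with 1 point per library in the 12 groups. The 3 MDA-MB-231 shKDM5A-2 libraries, from 0.977% to 0.990%, are the lowest of the series.

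Among the regulators in MDA-MB-231, PFKFB4, which makes the activator of phosphofructokinase, had 32.5, 32.4 and 34.0 CPM in controls, 15.4, 18.3 and 18.2 under shKDM5A-1 and 13.2, 13.9 and 12.7 under shKDM5A-2. The knockdown groups lay far below the controls. The log2 fold changes were -0.94 (SE 0.07, adjusted p = 7.51e-14) and -1.32 (SE 0.07, adjusted p = 3.17e-17). The kinase PDK1 had 21.1, 22.5 and 23.5 CPM in controls, 12.95, 14.2 and 11.8 under shKDM5A-1, and 14.49, 13.3 and 15.001 under shKDM5A-2. Both knockdown groups were below the controls and overlapped each other, with log2 fold changes of -0.79 (SE 0.08, adjusted p = 1.59e-10) and -0.66 (SE 0.08, adjusted p = 5.33e-09). PFKFB3, a second enzyme of that kind, fell by 0.46 and 0.68, and the related kinase PDK3 was not called with either reagent. The glucose transporter SLC2A1 fell by 0.40 and 0.34. Its relative SLC2A3 had 43.1, 47.8 and 43.5 CPM in controls, 61.3, 66.3 and 58.8 under shKDM5A-1 and 31.6, 34.1 and 32.9 under shKDM5A-2. SLC2A3 thus rose with one reagent and fell with the other, without overlap.

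The carbonic anhydrases, which set pH outside the cell, both fell with both reagents. CA9, a widely used marker of HIF activity, had 5.33, 4.62 and 5.64 CPM in controls, 1.85, 1.56 and 1.78 under shKDM5A-1 and 0.640, 0.430 and 0.971 under shKDM5A-2. The 3 groups were separate, 3.001-fold and 7.58-fold below the controls in the fit. The log2 fold changes were -1.59 (SE 0.19, adjusted p = 1.35e-08) and -2.92 (SE 0.23, adjusted p = 6.99e-13). CA12 had 114, 110.4 and 112 CPM in controls, 51.7, 48.7 and 50.6 under shKDM5A-1 and 32.9, 32.7 and 30.8 under shKDM5A-2. These groups were separate as well, at -1.15 (SE 0.04, adjusted p = 4.2e-22) and -1.80 (SE 0.04, adjusted p = 7.33e-27).

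Secreted factors varied. ANGPTL4, an inhibitor of lipoprotein lipase, had 21.3, 22.4 and 22.4 CPM in controls, 4.41, 5.01 and 5.07 under shKDM5A-1, and 11.002, 10.6 and 10.5 under shKDM5A-2. Here shKDM5A-1 gave the lower level, at -2.19 (SE 0.09, adjusted p = 7.02e-20) against -1.05 (SE 0.08, adjusted p = 1.78e-13). The endothelial growth factor VEGFA had 345, 344 and 357 CPM in controls, 291, 292 and 301 under shKDM5A-1, and 311, 310.2 and 309 under shKDM5A-2. All knockdown libraries were below all controls by a small margin, at -0.24 (SE 0.02, adjusted p = 5.97e-10) and -0.17 (SE 0.02, adjusted p = 5.98e-07). The vasodilator peptide adrenomedullin (ADM) fell by 0.22 and 0.54. The glycoprotein hormone STC2 had 1.55, 1.56 and 1.37 CPM in controls, 1.74, 2.06 and 1.73 under shKDM5A-1, and 4.25, 3.33 and 4.59 under shKDM5A-2. It was the only member to rise by 1.5-fold or more with shKDM5A-2 (6.35% of all genes did), at 1.44 (SE 0.20, adjusted p = 1.35e-07), and was not called with shKDM5A-1 (0.31, adjusted p = 0.247).

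The 6 signalling, transcription and ubiquitin ligase factors all fell with both shRNAs in MDA-MB-231, with medians of -0.93 and -1.57. NDRG1, a stress-induced gene of differentiation, had 409, 399 and 405 CPM in controls, 156, 151 and 156 under shKDM5A-1, and 84.3, 87.0 and 80.7 under shKDM5A-2. The groups were far apart, at -1.39 (SE 0.03, adjusted p = 3.87e-28) and -2.27 (SE 0.03, adjusted p = 4e-33). DDIT4, an inhibitor of mTORC1, had 293, 285 and 287 CPM in controls, 161, 161 and 160.2 under shKDM5A-1, and 87.6, 89.5 and 90.8 under shKDM5A-2. The separation was again complete, at -0.84 (SE 0.03, adjusted p = 1.49e-22) and -1.69 (SE 0.03, adjusted p = 3.46e-30). ANKRD37, an ankyrin repeat protein, had 8.90, 8.24 and 8.54 CPM in controls, 4.35, 3.23 and 4.07 under shKDM5A-1, and 2.39, 3.12 and 2.86 under shKDM5A-2. All knockdown libraries were below the controls, at -1.14 (SE 0.13, adjusted p = 3.74e-09) and -1.61 (SE 0.14, adjusted p = 5.63e-12). The transcriptional repressor BHLHE40 had 120.1, 117 and 124 CPM in controls, 73.5, 74.3 and 72.5 under shKDM5A-1, and 41.6, 41.8 and 41.9 under shKDM5A-2, a fall by 0.71 and 1.53 on the log2 scale. The MYC antagonist MXI1 fell by 0.71 and 0.95, and WSB1, a ubiquitin ligase substrate receptor, fell by 1.02 and 0.29.

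The mitochondrial members all fell. BNIP3, a receptor for mitophagy, had 287, 289 and 287 CPM in controls, 165, 168 and 168 under shKDM5A-1 and 122, 123 and 121 under shKDM5A-2. Its groups were narrow and separate. Its relative BNIP3L fell by 0.61 and 0.81 on the log2 scale, and FAM162A fell by 0.32 and 0.40. The sterol regulator INSIG2 fell by 0.43 and 0.32 and the glycogen branching enzyme GBE1 by 0.31 and 0.38, while the oxidase ERO1L was at -0.01, not called, and then fell by 0.50.

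The 2 KDM5A reagents differed from each other in MDA-MB-231 for 32 of 39 members, with 27 lower and 5 higher with shKDM5A-2. Of all genes tested 56.6% differed (29.7% lower and 26.9% higher), and the members were not tested against all genes. Without a scaling factor on the total counts, where the median of all genes was 0.106, the split was 23 lower and 9 higher. The largest differences, shKDM5A-2 minus shKDM5A-1, were -1.34 for CA9 (SE 0.27, adjusted p = 7.76e-05), 1.14 for ANGPTL4 (SE 0.10, adjusted p = 1.36e-11), 1.13 for STC2 (SE 0.18, adjusted p = 3.74e-06), -1.07 for ALDOC (SE 0.36, adjusted p = 0.0128) and -0.92 for SLC2A3 (SE 0.05, adjusted p = 3.24e-16). The ALDOC difference lost its call in 2 of 15 alternatives. KDM5A itself was at 16.1 to 17.4 CPM with shKDM5A-1 and at 18.3 to 19.4 CPM with shKDM5A-2.

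In 293T the same shRNAs gave smaller changes that differed by reagent. With shKDM5A-1, 23 of 37 members fell and 5 rose (median -0.10), where 42.2% of all genes were called (20.6% lower and 21.6% higher). With shKDM5A-2, 11 fell and 15 rose (median 0.03), where 39% of all genes were called (19.5% in each direction). The core enzymes split the most between the reagents: 12 of 15 fell and 2 rose with shKDM5A-1, while 0 fell and 10 rose with shKDM5A-2. Among the 22 other members 11 fell with each reagent, and 3 and 5 rose. Between the reagents 22 members were higher with shKDM5A-2 and 9 lower, where 49.3% of all genes differed. Directly compared, 13 of 15 enzymes were higher with shKDM5A-2 than with shKDM5A-1 and 0 were lower, where 24.3% of all genes were higher and 25% lower.

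LDHA had 1262, 1276 and 1269.5 CPM in shControl, 1121, 1133 and 1114 under shKDM5A-1 and 1301, 1299 and 1312 under shKDM5A-2. The reagents lay on opposite sides of the controls, but the shKDM5A-2 change was not called, at -0.18 (SE 0.02, adjusted p = 1.76e-10) and 0.04 (SE 0.02, adjusted p = 0.0743). PGK1 had 603, 599.8 and 583 CPM in controls, 574, 586 and 567 under shKDM5A-1, and 588, 580.1 and 587 under shKDM5A-2. Its groups overlapped and neither change was called (adjusted p = 0.051 and 0.367). GAPDH had 2580.4, 2634 and 2639.8 CPM in controls, 2699, 2746 and 2672 under shKDM5A-1, and 2710.2, 2639.6 and 2750.2 under shKDM5A-2. It was called higher by 0.05 (SE 0.02, adjusted p = 0.0308) and 0.04 (SE 0.02, adjusted p = 0.0455), but these calls were lost in 6 and 8 of 16 alternatives and the first turned to -0.0038 without a scaling factor.

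ALDOC had 15.7, 17.3 and 18.6 CPM in 293T shControl, 10.5, 11.1 and 11.7 under shKDM5A-1 and 23.5, 21.3 and 20.2 under shKDM5A-2, so it fell with one reagent and rose with the other. ENO2 had 61.0, 64.1 and 65.4 CPM in controls, 52.2, 54.6 and 51.3 under shKDM5A-1, and 87.3, 84.0 and 81.9 under shKDM5A-2. PFKFB4 had 20.9, 20.5 and 21.3 CPM in controls, 17.5, 14.7 and 16.3 under shKDM5A-1, and 28.1, 25.2 and 25.3 under shKDM5A-2. All 3 genes were below the controls with shKDM5A-1 and above them with shKDM5A-2, without overlap. The differences between reagents were 0.97 for ALDOC (SE 0.08, adjusted p = 6.64e-13), 0.70 for PFKFB4 (SE 0.07, adjusted p = 4.28e-11) and 0.68 for ENO2 (SE 0.04, adjusted p = 4.74e-17). The remaining large ones were 1.08 for CA12 (SE 0.10, adjusted p = 1.89e-11) and -0.52 for NDRG1 (SE 0.03, adjusted p = 9.29e-17).

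NDRG1 was the member with the clearest fall with both shRNAs in 293T, with 185, 197 and 191 CPM in controls, 163, 159 and 158 under shKDM5A-1, and 115, 113 and 109 under shKDM5A-2. The groups were separate, at -0.26 (SE 0.03, adjusted p = 2.3e-09) and -0.77 (SE 0.03, adjusted p = 8.53e-22). DDIT4 had 275, 269.9 and 273 CPM in controls, 219, 226 and 225 under shKDM5A-1, and 234, 232 and 237 under shKDM5A-2. It fell with both, at -0.29 (SE 0.02, adjusted p = 1.9e-12) and -0.22 (SE 0.02, adjusted p = 9.27e-10). CA12 had 13.5, 13.8 and 13.6 CPM in controls, 6.13, 5.14 and 5.60 under shKDM5A-1, and 11.1, 13.2 and 11.5 under shKDM5A-2. All its knockdown libraries were below the controls, but only the shKDM5A-1 change was called, at -1.28 (SE 0.10, adjusted p = 3.74e-13) against -0.20 (SE 0.08, adjusted p = 0.0614). GBE1 had 33.8, 32.1 and 32.4 CPM in controls, 23.6, 23.8 and 23.3 under shKDM5A-1, and 28.7, 28.0 and 27.2 under shKDM5A-2. It fell with both shRNAs, at -0.48 (SE 0.05, adjusted p = 2.64e-09) and -0.23 (SE 0.05, adjusted p = 0.000267).

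PFKFB3 had 76.6, 77.4 and 78.1 CPM in 293T shControl, 67.8, 71.4 and 73.9 under shKDM5A-1, and 56.8, 58.9 and 57.4 under shKDM5A-2. It fell with both, at -0.12 (SE 0.04, adjusted p = 0.00473) and -0.42 (SE 0.04, adjusted p = 3.99e-12). PDK1 had 42.5, 37.7 and 37.9 CPM in controls, 32.6, 32.7 and 33.4 under shKDM5A-1, and 38.6, 42.9 and 38.6 under shKDM5A-2. The shKDM5A-1 libraries were lower and the others overlapped the controls, at -0.26 (SE 0.05, adjusted p = 0.000167) and 0.03 (SE 0.05, adjusted p = 0.72). PDK3 had 11.6, 11.3 and 11.2 CPM in controls, 13.4, 11.9 and 12.6 under shKDM5A-1, and 15.3, 14.2 and 14.9 under shKDM5A-2. It rose only with shKDM5A-2, at 0.16 (SE 0.08, adjusted p = 0.114) and 0.38 (SE 0.08, adjusted p = 0.000108).

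VEGFA moved in opposite directions with the 2 reagents in 293T, with 88.6, 92.1 and 86.7 CPM in controls, 102, 103 and 107 under shKDM5A-1, and 76.4, 75.2 and 69.5 under shKDM5A-2. The groups did not overlap, at 0.22 (SE 0.03, adjusted p = 2.16e-06) and -0.28 (SE 0.04, adjusted p = 5.77e-08). SLC2A3 had 18.8, 21.0 and 20.9 CPM in controls, 25.6, 27.2 and 26.3 under shKDM5A-1, and 25.04, 21.7 and 22.1 under shKDM5A-2. It rose by 0.38 (SE 0.06, adjusted p = 5.6e-06) and 0.18 (SE 0.06, adjusted p = 0.0219), the second of which was lost in 3 of 16 alternatives. ADM had 4.50, 4.996 and 4.80 CPM in controls, 6.25, 6.05 and 6.93 under shKDM5A-1, and 5.72, 6.84 and 5.38 under shKDM5A-2. All its knockdown libraries were above the controls, at 0.42 (SE 0.12, adjusted p = 0.00471) and 0.32 (SE 0.12, adjusted p = 0.0319), and the second call was lost in 4 of 16 alternatives.

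EglN2 siRNA in MDA-MB-231 changed members in both directions and by less. Under siEglN2-1 20 of the 39 fell and 5 rose (median -0.08), and under siEglN2-2 23 fell and 6 rose (median -0.07), where 44.5% and 45.4% of all genes were called (23% and 23.6% lower, 21.5% and 21.8% higher). The split depended on scaling. With total counts alone it was 16 lower and 13 higher for siEglN2-1 and 14 lower and 8 higher for siEglN2-2. With upper-quartile scaling it was 16 and 7 for siEglN2-1. The median of all genes moved too, from 0.004 and 0.002 to 0.049 and 0.051 with total counts. It was 0.030 for siEglN2-1 with upper-quartile scaling. Shares of all genes called under these scalings are not given here, so the shift cannot be read as particular to the members. Core enzymes gave 7 lower and 1 higher (median -0.02), then 8 and 2 (median -0.04), and the other members 13 and 4 (median -0.15), then 15 and 4 (median -0.14). Without siControl 1 the members numbered 19 lower and 5 higher, then 21 and 6, where 40.01% and 41.0% of all genes were called. BHLHE40 and GBE1 with siEglN2-1 and ENO1 and SLC2A1 with siEglN2-2 then lost their calls (adjusted p = 0.051, 0.0586, 0.115 and 0.0853 in that order). No member differed between the 2 siRNAs, where 1 of all genes did (0.00662%).

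VEGFA had 513, 501 and 508 CPM in the MDA-MB-231 siControl libraries, 289.9, 300.2 and 301 under siEglN2-1, and 291, 297 and 297 under siEglN2-2. All knockdown libraries lay well below the controls and those of the siRNAs overlapped each other. The log2 fold changes were -0.77 (SE 0.02, adjusted p = 5.33e-30) and -0.78 (SE 0.02, adjusted p = 3.36e-30), a 1.71-fold and 1.72-fold lower level. ANGPTL4 had 21.1, 22.0 and 20.2 CPM in controls, 11.9, 12.2 and 12.1 under siEglN2-1, and 11.2, 12.6 and 11.6 under siEglN2-2. It fell without overlap, at -0.81 (SE 0.08, adjusted p = 5.16e-12) and -0.84 (SE 0.08, adjusted p = 1.4e-12). CA9 had 6.18, 7.56 and 7.08 CPM in controls, 5.004, 4.77 and 5.60 under siEglN2-1, and 5.31, 4.84 and 4.88 under siEglN2-2. Its knockdown libraries were all below the controls, at -0.43 (SE 0.13, adjusted p = 0.00407) and -0.47 (SE 0.12, adjusted p = 0.00184). CA12 had 121, 119 and 123 CPM in controls, 91.0, 90.4 and 92.3 under siEglN2-1, and 95.1, 90.7 and 91.3 under siEglN2-2. This was a separate fall, at -0.41 (SE 0.03, adjusted p = 3.86e-15) and -0.39 (SE 0.03, adjusted p = 1.22e-14).

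ERO1L, which forms disulphide bonds in the endoplasmic reticulum, had 233, 223 and 219 CPM in controls, 158, 162 and 165 under siEglN2-1, and 169.8, 172 and 164 under siEglN2-2. The groups did not overlap, at -0.48 (SE 0.02, adjusted p = 6.33e-21) and -0.42 (SE 0.02, adjusted p = 4.41e-19). DDIT4 had 263, 265 and 270.3 CPM in controls, 211, 213 and 206 under siEglN2-1, and 218, 212 and 213 under siEglN2-2. It fell by 0.34 (SE 0.02, adjusted p = 6.98e-17) and 0.31 (SE 0.02, adjusted p = 1.43e-15). INSIG2 had 43.1, 33.8 and 39.1 CPM in controls, 29.8, 29.2 and 30.7 under siEglN2-1, and 28.2, 29.7 and 28.9 under siEglN2-2. Its controls were spread but all above the knockdown libraries, at -0.37 (SE 0.06, adjusted p = 1.16e-05) and -0.42 (SE 0.06, adjusted p = 1.77e-06). PDK1 had 23.3, 25.5 and 25.5 CPM in controls, 19.6, 21.9 and 21.9 under siEglN2-1, and 21.6, 20.2 and 22.0 under siEglN2-2. It fell by 0.23 (SE 0.06, adjusted p = 0.00376) and 0.22 (SE 0.06, adjusted p = 0.00433).

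SLC2A3 was the member with the largest rise in MDA-MB-231 after EglN2 siRNA. It had 79.0, 85.5 and 82.3 CPM in controls, 109, 101 and 106 under siEglN2-1, and 107, 103 and 103 under siEglN2-2. All knockdown libraries were above the controls, at 0.36 (SE 0.03, adjusted p = 8.41e-12) and 0.34 (SE 0.03, adjusted p = 1.77e-11). ADM had 69.4, 65.7 and 70.2 CPM in controls, 84.4, 78.0 and 80.2 under siEglN2-1, and 82.4, 80.4 and 79.3 under siEglN2-2, a rise by 0.24 with either. The enzymes stayed close to the controls. GAPDH had 2685, 2709 and 2649 CPM in controls, 2537, 2509 and 2520.2 under siEglN2-1, and 2508, 2469 and 2451 under siEglN2-2. It fell by 0.09 (SE 0.01, adjusted p = 3.85e-08) and 0.11 (SE 0.01, adjusted p = 4.92e-11), without overlap.

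LDHA had 2099, 2119 and 2098 CPM in the MDA-MB-231 siControl libraries, 2063, 2033 and 2051 under siEglN2-1, and 2045, 1991 and 1987 under siEglN2-2. The falls were by 0.04 (SE 0.01, adjusted p = 0.0113) and 0.07 (SE 0.01, adjusted p = 2.1e-05), and the first turned to 0.0055 without a scaling factor. PGK1 had 946, 937 and 934 CPM in controls, 961, 926 and 948 under siEglN2-1, and 946, 929 and 941 under siEglN2-2. Its groups overlapped and it was not called (adjusted p = 0.676 and 0.986), although without a scaling factor it was called higher by 0.05 with siEglN2-2.

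EglN2 siRNA in 293T lowered enzymes and other members. Under siEglN2-1 24 of the 37 fell and 2 rose (median -0.19), and under siEglN2-2 22 fell and 2 rose (median -0.21), where 35.1% and 34.2% of all genes were called. Of all genes 18.2% and 17.3% were lower and 16.9% and 16.8% higher. Of the core enzymes 11 and 10 fell and 0 rose (medians -0.19 and -0.18), and of the 22 others 13 and 12 fell and 2 rose (medians -0.24 and -0.27). Without the unnumbered control, 26 members fell and 2 rose with each siRNA (medians -0.17 and -0.15), and the share of all genes called was also higher, at 43.0% and 42.4%. Between the siRNAs 0 members and 0 of all genes differed.

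The enolase ENO1 had 2423, 2384 and 2727 CPM in 293T siControl, where the third is the unnumbered library, 1842, 1820.0 and 1826 under siEglN2-1, and 1827, 1830.0 and 1846 under siEglN2-2. All knockdown libraries lay below all controls, at -0.46 (SE 0.05, adjusted p = 0.000109) and -0.45 (SE 0.05, adjusted p = 0.000117). LDHA had 1142, 1147 and 1264 CPM in controls, 902, 903 and 919.7 under siEglN2-1, and 895, 906 and 913 under siEglN2-2. It fell by 0.38 (SE 0.05, adjusted p = 0.00015) and 0.39 (SE 0.05, adjusted p = 0.000137). HK2 had 139, 139 and 114 CPM in controls, 97.4, 94.97 and 92.3 under siEglN2-1, and 98.2, 94.4 and 95.1 under siEglN2-2. It fell by 0.46 (SE 0.07, adjusted p = 0.000619) and 0.45 (SE 0.07, adjusted p = 0.000768), without overlap. ALDOC had 11.6, 13.5 and 14.7 CPM in controls, 9.84, 8.70 and 11.02 under siEglN2-1, and 8.49, 8.95 and 10.4 under siEglN2-2. It fell by 0.43 (SE 0.12, adjusted p = 0.0157) and 0.52 (SE 0.12, adjusted p = 0.00679), and the first call was lost in 2 of 16 alternatives.

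GAPDH had 2769, 2768 and 3340.5 CPM in 293T siControl, 2601, 2564 and 2602 under siEglN2-1, and 2581, 2666 and 2559 under siEglN2-2. The unnumbered library was the highest and all knockdown libraries were below all controls, at -0.19 (SE 0.07, adjusted p = 0.0496) and -0.19 (SE 0.07, adjusted p = 0.0581). Without that library GAPDH fell by 0.10 (adjusted p = 0.000573) and 0.09 (adjusted p = 0.0012). PGK1 had 561, 555 and 609 CPM in controls, 565, 564 and 567 under siEglN2-1, and 569.5, 561 and 566 under siEglN2-2. Its groups overlapped and it was not called (adjusted p = 0.678 and 0.701).

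ANKRD37 had 5.91, 5.32 and 6.29 CPM in 293T siControl, 4.20, 3.40 and 3.48 under siEglN2-1, and 3.16, 3.81 and 3.69 under siEglN2-2. The groups were separate, at -0.66 (SE 0.13, adjusted p = 0.00236) and -0.71 (SE 0.13, adjusted p = 0.00162). NDRG1 had 130.2, 132 and 130.0 CPM in controls, 96.8, 93.9 and 96.4 under siEglN2-1, and 96.4, 92.6 and 97.2 under siEglN2-2. It fell by 0.45 (SE 0.04, adjusted p = 1.36e-05) and 0.46 (SE 0.04, adjusted p = 1.4e-05). PFKFB4 had 22.0, 20.9 and 22.3 CPM in controls, 16.6, 15.5 and 14.1 under siEglN2-1, and 17.3, 15.02 and 16.0 under siEglN2-2. This was a fall by 0.50 (SE 0.08, adjusted p = 0.00063) and 0.44 (SE 0.08, adjusted p = 0.00138). FAM162A, a mitochondrial protein, had 66.4, 65.9 and 84.1 CPM in controls, 56.0, 52.3 and 55.5 under siEglN2-1, and 57.2, 56.5 and 55.2 under siEglN2-2. It fell by 0.40 (SE 0.08, adjusted p = 0.00431) and 0.36 (SE 0.08, adjusted p = 0.00832), with its highest value in the unnumbered control. Without that library FAM162A fell by 0.28 (adjusted p = 3.4e-06) and 0.23 (adjusted p = 3.15e-05).

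VEGFA rose in 293T, with 84.4, 79.2 and 78.4 CPM in controls, 102, 104 and 105 under siEglN2-1, and 106, 105 and 106 under siEglN2-2. All 6 knockdown libraries were above the controls, at 0.36 (SE 0.04, adjusted p = 0.000106) and 0.39 (SE 0.04, adjusted p = 6.81e-05). The other member to rise was STC2, by 0.15 and 0.16. PDK1 had 45.7, 44.9 and 37.1 CPM in controls, 40.1, 38.7 and 38.4 under siEglN2-1, and 38.6, 38.7 and 39.8 under siEglN2-2. The unnumbered control was the lowest of all 9 libraries and the groups overlapped, with neither change called (adjusted p = 0.212 and 0.208). Without that library PDK1 fell by 0.21 with siEglN2-1 (adjusted p = 0.0003).

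**Figure D3:**
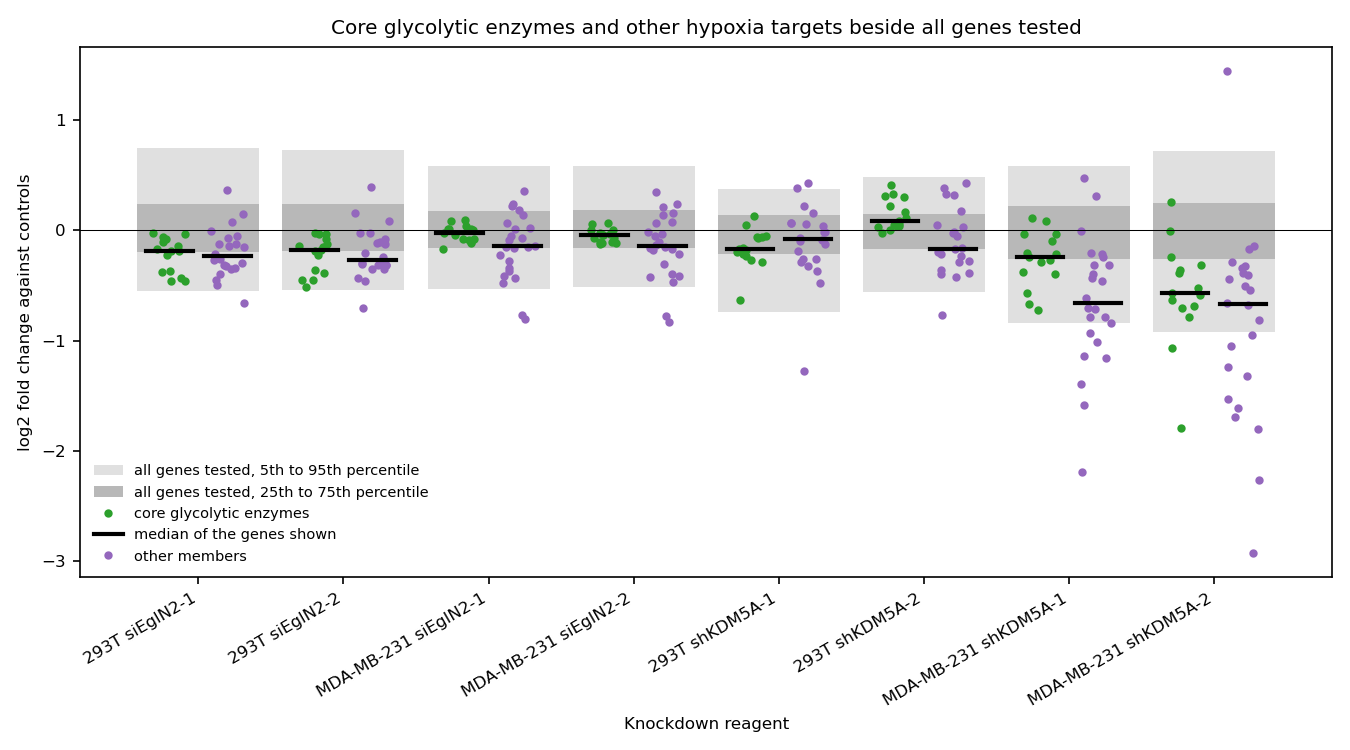
Log2 fold changes of the core enzymes and of the other members (points, medians as bars) in each reagent's comparison, over bands for the 25th to 75th and the 5th to 95th percentiles of all genes tested. In MDA-MB-231 with KDM5A shRNA the medians of the other members (-0.66 and -0.67) lie below the 25th percentile of all genes. So do the medians of the core enzymes with shKDM5A-2 there and of the other members with EglN2 siRNA in 293T. In 293T with shKDM5A-2 the core enzymes' median is 0.09.

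The effect of each knockdown was compared between the lines in a joint fit of 18 libraries, where the effect is the average over both reagents. For EglN2 the effect differed for 23 of 37 members, 19 more positive and 4 more negative in MDA-MB-231, where 31.2% of all genes differed (17.2% and 13.9%). Of the core enzymes 8 were more positive and 0 more negative. Without the unnumbered 293T control 19 members were more positive and 5 more negative (core enzymes 8 and 1, all genes 36.9% called), with the differences of ALDOA and PGAM1 smaller, at 0.13 and 0.09 against 0.21 and 0.15. Without siControl 1 of MDA-MB-231 they numbered 18 and 3 (all genes 26.6% called), and the calls of BNIP3L and ERO1L were lost (adjusted p = 0.0712 and 0.128). The largest difference was VEGFA, at -1.15 (SE 0.04, adjusted p = 4e-13), which fell in MDA-MB-231 and rose in 293T. The next were ANKRD37 at 0.87 (SE 0.16, adjusted p = 0.000402), SLC2A3 at 0.58 (SE 0.06, adjusted p = 7.52e-07), ENO1 at 0.43 (SE 0.05, adjusted p = 3.74e-06) and ADM at 0.42 (SE 0.10, adjusted p = 0.0044).

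For KDM5A the effect differed for 35 of 37 members, 32 more negative and 3 more positive in MDA-MB-231, where 44.7% of all genes differed (22% and 22.7%). All 15 core enzymes differed, 13 of them more negative. The largest differences were NDRG1 at -1.32 (SE 0.03, adjusted p = 5.9e-28), ANKRD37 at -1.26 (SE 0.14, adjusted p = 2.22e-09), ALDOC at -1.11 (SE 0.24, adjusted p = 0.000237), PFKFB4 at -1.11 (SE 0.08, adjusted p = 4.24e-14) and DDIT4 at -1.01 (SE 0.03, adjusted p = 8.45e-27). In 293T the shRNAs moved ALDOC and PFKFB4 in opposite directions. Their averaged effects there, -0.15 and -0.02, thus describe neither shRNA. The tables of the lines were made separately, so a step that differed between them cannot be told apart from the line.

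**Figure D4:**
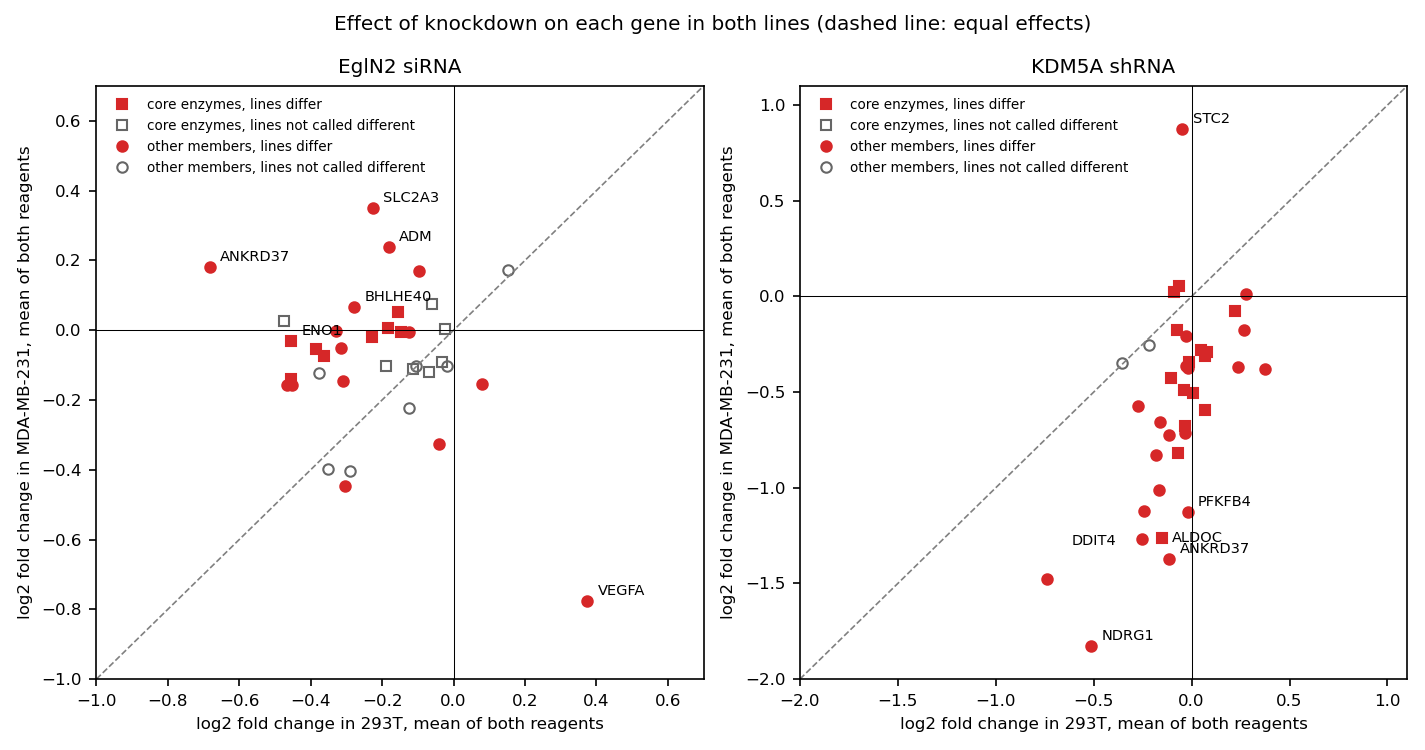
Mean log2 fold change of both reagents in 293T (x axis) and in MDA-MB-231 (y axis) for the 37 members in both, with EglN2 and KDM5A in separate panels and filled red points where the lines differed. VEGFA lies apart for EglN2 (difference -1.15), and for KDM5A most points lie below the diagonal.

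Levels in the controls differed between the lines for most members, as for most genes. In siControl 24 members were higher and 11 lower in MDA-MB-231 (82.3% of all genes differed, 40.4% higher and 41.9% lower), and in shControl 27 and 10 (85.8%, 42% higher and 43.8% lower). The siControl numbers were 26 and 11 without the unnumbered 293T library (83.4% of all genes) and 24 and 11 without siControl 1 of MDA-MB-231 (79.1%). The largest differences were STC2 at -6.31 in siControl and -6.67 in shControl, ADM at 3.90 and 4.52, SLC2A1 at 3.19 and 3.85, CA12 at 3.01 and 3.25, VEGFA at 2.86 in siControl, and ALDOC at -3.14 in shControl, all on the log2 scale. The median of all genes was -0.03 in siControl and -0.04 in shControl, and -0.23 and -0.27 without a scaling factor. Line differences are thus relative to the scaling, and ones of that size can depend on it. The differences named above are larger than that.

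Genes next to the members were counted from lists of other pathway genes, to be read beside the shares of all genes called in the same comparison. With KDM5A shRNA in MDA-MB-231 these were 28.1% higher and 27.2% lower, then 29.4% and 29.6%. The lists overlap, so their counts are not separate. EGLN1 and EGLN3 are among both the HIF regulators and the other HIF targets. SLC16A3 is among both the other glycolysis genes and the other HIF targets. In MDA-MB-231 with KDM5A shRNA, 2 of 11 HIF subunits and regulators were higher and 6 lower for either reagent, with EGLN3, an oxygen-dependent hydroxylase and HIF target, falling by 1.03 and 1.38 and VHL by 0.52 and 0.26. Of 33 other HIF targets, 20 fell and 6 rose with shKDM5A-1 and 26 fell and 3 rose with shKDM5A-2 (medians -0.32 and -0.44). Among them the liprin PPFIA4 fell by 1.66 and 3.501 and the collagen crosslinker LOX by 1.14 and 1.49. HIF1A, chosen after its values were seen, rose by 0.19 with shKDM5A-1 and fell by 0.60 with shKDM5A-2.

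Other genes of glycolysis, lactate and pyruvate were split in MDA-MB-231 with KDM5A shRNA, with 8 of 26 higher and 8 lower, then 10 and 11 (medians -0.06 and 0.02). The kinase PDK4 fell by 1.72 and 0.54 and PFKFB2 rose by 0.84 and 0.95. The pentose phosphate pathway had 4 of 7 lower and 1 higher, then 7 lower, with TALDO1 falling by 0.57 and 0.23. The tricarboxylic acid cycle had 7 of 18 higher and 6 lower, then 4 and 7. Within it IDH3A rose by 0.50 and 0.73, and SUCLG2 rose by 0.17 and fell by 1.67.

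With EglN2 siRNA in MDA-MB-231, where 21.5% of all genes rose and 23% fell, then 21.8% and 23.6%, 14 of 33 other HIF targets rose and 7 fell, then 17 and 7 (medians 0.08 and 0.09). CITED2, a competitor of HIF for its coactivators, rose by 0.89 and 0.87, and the growth factor TGFA fell by 0.88 and 0.83. The HIF regulators had 5 of 11 higher and 4 lower, then 6 and 4, where 1 of the lower genes is EGLN2, the target of the siRNA. ARNT2 rose by 0.69 and 0.84, and, chosen after their values were seen, HIF1A fell by 0.72 and 0.71 and EGLN3 rose by 0.60 and 0.55. Other glycolysis genes had 7 of 26 higher and 10 lower, then 5 and 9. The phosphoglucomutases PGM2 and PGM1 moved apart, the first rising by 0.98 and 0.99 and the second falling by 0.84 and 0.86. The pentose pathway had 4 of 7 lower with each siRNA, with RPIA falling by 0.23 and 0.30 and TALDO1 by 0.16 and 0.21. In the tricarboxylic acid cycle 10 and 12 of 18 fell, with SDHA falling by 0.40 with either and IDH3A by 0.33 and 0.26.

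With EglN2 siRNA in 293T, where 16.9% of all genes rose and 18.2% fell, then 16.8% and 17.3%, 13 of 18 tricarboxylic acid cycle genes fell and 1 rose with each siRNA (median -0.21), with IDH3A falling by 0.43 and 0.45 and MDH2 by 0.39 and 0.36. Of 34 other HIF targets 16 fell and 2 rose, then 15 and 3. The lipid droplet gene HILPDA fell by 0.54 and 0.55 and the receptor KISS1R, at 1.17 CPM in controls, by 1.197 and 0.91. In the pentose pathway 3 and 4 of 7 fell, with TALDO1 falling by 0.69 with either and RPIA by 0.46 and 0.44. Other glycolysis genes had 5 of 30 higher and 9 lower, then 6 and 10, and the largest changes there were of transcripts at or under 1 CPM, with PCK1 falling by 2.14 and 1.44 and FBP1 rising by 1.76 and 1.44. In the same list, and chosen after their values were seen, PGM1 fell by 0.89 and 0.90 and PGM2 rose by 0.89 and 0.90. HIF regulators had 3 of 11 higher and 4 lower with each siRNA, EGLN2 itself being 1 of the lower, with ARNT2 rising by 0.41 and 0.48.

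With KDM5A shRNA in 293T, where 21.6% of all genes rose and 20.6% fell, then 19.5% in each direction, 16 of 34 other HIF targets fell and 5 rose, then 17 and 2, with LOXL2 falling by 0.72 and 0.53. TGFA fell by 0.96 with shKDM5A-1, and its value of -0.43 with shKDM5A-2 was not called. EPAS1, the alpha subunit HIF-2, fell by 0.91 and 0.56 and VHL by 0.22 and 0.23, in a list with 2 of 11 higher and 5 lower, then 3 and 3. Other glycolysis genes had 6 of 28 higher and 5 lower, then 8 and 7. PGAM2 fell by 3.20 and the lactate transporter SLC16A3 rose by 0.81 with shKDM5A-1, both at about 1 CPM, and neither was called with shKDM5A-2. Within the pentose pathway, with 3 of 7 higher and 3 lower and then 4 and 3, RPIA rose by 0.32 and fell by 0.86, and PGLS fell by 0.26 and 0.14. The tricarboxylic acid cycle had 3 of 18 higher and 4 lower, then 9 and 2, with OGDH falling by 0.46 and rising by 0.13, and SUCLG2 falling by 0.79 with shKDM5A-2 alone.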

How the data were processed

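RNA sequencing values of 36 libraries (4 experiments of 9, 3 libraries per group) were read from 4 deposited tables. The expected counts per gene are the authors' raw columns per the file headers; between 49.3% and 50.4% of the values were whole, rows had a maximum of at least 10, and which step each tool made is not given in the sources used here. The submitters' processing notes name Salmon 0.1.19, STAR 2.4.2, hg19 and GRCh38. The authors also deposited normalized log2 columns, whose transformation is not stated; these 36 columns were not used. Libraries were grouped by their labels, except 1 control column of 293T EglN2 without a replicate number, taken as a siControl library. Date-like gene names (20 to 22 per table, 0.194% to 0.209% of counts) were left out.

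Counts were rounded and fitted in edgeR 4.0.16 (R 4.3.3; TMM, low counts filtered by filterByExpr at 10, two-sided quasi-likelihood F-test with robust dispersions, Benjamini-Hochberg over all genes). In 293T it covered 17622 genes for EglN2 and 17376 for KDM5A, in MDA-MB-231 15109 and 15454, and 14579 (EglN2) and 14767 (KDM5A) in joint fits of 18 libraries for the lines. CPM are edgeR's, on TMM-scaled totals. Depth per library was 14361214 to 27592132 counts, which limits precision for members of a few CPM. The members and lists were chosen with earlier results of these data known. Per experiment, the 8 members with the largest mean change among those called and at 1 CPM or more are given by library, with GAPDH, LDHA, PGK1, PDK1, VEGFA and CA9; between reagents, lines and controls the 5 largest called differences are named, and of each further list 2 called genes, of which 1 is not reported here.

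Correlations of residuals between equally numbered libraries ran from -0.0872 to 0.0773 and none passed 0.1, so the numbers were not read as pairs. Alternatives were DESeq2 1.42.0, 3 other scalings, no count filter, the 6 compared libraries alone, a replicate block and leaving out each library. The fit was checked on simulated counts with 50 genes changed per fold size: for MDA-MB-231 shKDM5A-1, over 15454 genes, 94% of 4-fold, 84% of 2-fold, 72% of 1.5-fold and 56% of 1.2-fold changes were called with the right sign, and for 293T siEglN2-1, over 17622 genes, 88%, 70%, 44% and 12%. Of the genes called, 6.71% and 3.60% were false, and 7.69% for 293T shKDM5A-1 and 6.55% for MDA-MB-231 siEglN2-1. Promoter letters were counted in RefSeq windows of GRCh38.p14, and none of chromosome 8 was read. Figures were drawn with matplotlib 3.10.9.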

Additional observations from a re-analysis of the deposited data

Results flagged for a closer look

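The results listed here differed between the 2 lines in a test of the difference itself (interaction in the joint edgeR fit of 18 libraries, quasi-likelihood test, adjusted p under 0.05 after Benjamini-Hochberg over all genes). Values are log2, the effect in MDA-MB-231 minus the effect in 293T, each effect averaged over both reagents. They are given without an explanation, and the lines' tables were made separately, so a step that differed between them cannot be told apart from the line.

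For EglN2, 4 members were more negative in MDA-MB-231. VEGFA, which rose in 293T and fell in MDA-MB-231, differed by -1.15, DDIT4 by -0.28, the ubiquitin ligase receptor WSB1 by -0.23 and ERO1L by -0.14. Of the enzymes more positive there, ENO1 differed by 0.43, LDHA by 0.34, HK2 by 0.32, HK1 by 0.30, GPI and ALDOA by 0.21 each, PKM by 0.20 and PGAM1 by 0.15. For glucose uptake and its control, SLC2A3 differed by 0.58, PFKFB4 by 0.32, SLC2A1 by 0.27 and PFKFB3 by 0.17. Of the rest, ANKRD37 differed by 0.87, ADM by 0.42, BHLHE40 by 0.35, BNIP3 by 0.33, NDRG1 by 0.30, MXI1 by 0.27 and BNIP3L by 0.12. Over 24 alternatives the calls of BNIP3L (lost in 11), ERO1L (lost in 8) and PFKFB3 (lost in 1) did not all hold.

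For KDM5A, 32 members were more negative in MDA-MB-231. Among the enzymes ALDOC differed by -1.11, LDHA by -0.75, ENO2 by -0.66, PFKL by -0.64, PKM by -0.51, PGK1 by -0.45, PFKP by -0.38, TPI1 by -0.37, ENO1 and GAPDH by -0.33 each, ALDOA by -0.32, PGAM1 by -0.30 and GPI by -0.10. Among transporters and regulators PFKFB4 differed by -1.11, PDK1 and SLC2A1 by -0.61 each, PDK3 by -0.45, PFKFB3 by -0.30 and SLC2A3 by -0.27. For pH and secreted factors ADM differed by -0.75, CA12 by -0.74 and VEGFA by -0.18. Among mitochondrial and signalling members NDRG1 differed by -1.32, ANKRD37 by -1.26, DDIT4 by -1.01, BHLHE40 by -0.88, BNIP3 by -0.84, BNIP3L by -0.68, MXI1 by -0.65, WSB1 by -0.49, INSIG2 by -0.36 and FAM162A by -0.34. The 3 members more positive in MDA-MB-231 were STC2 at 0.92, HK1 at 0.12 and HK2 at 0.11. Where the shRNAs moved a member in opposite directions, the average cancels their changes and describes neither shRNA. This applied among others to HK2 and SLC2A3 in MDA-MB-231, with averaged effects of 0.02 and 0.01 there. It also applied to ALDOC, ENO2, PFKFB4 and VEGFA in 293T. The calls of PDK3 (lost in 5 of 24 alternatives), HK2 (lost in 2) and GPI (lost in 1) did not all hold.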

How the results depend on the processing

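No count of members called, summed over both directions, moved by more than 1.5 times under any alternative run. Counts in 1 direction did, all with total counts without a scaling factor. In MDA-MB-231 members higher with siEglN2-1 went from 5 to 13, and members lower with siEglN2-2 from 23 to 14. Members higher with shKDM5A-1 there went from 3 to 1, and members higher with shKDM5A-2 than shKDM5A-1 from 5 to 9. The median of all genes under that scaling was 0.049, 0.051, -0.062 and 0.106 in these comparisons, in that order. Shares of all genes called under it are not given here. Leaving out 1 library at a time gave 20 to 28 members for 293T siEglN2-1, 21 to 28 for siEglN2-2, 24 to 26 and 26 to 29 for the same siRNAs in MDA-MB-231, 23 to 30 and 21 to 26 for shKDM5A-1 and shKDM5A-2 in 293T, and 33 to 35 and 37 to 37 in MDA-MB-231. Between the shRNAs it gave 28 to 31 in 293T and 30 to 33 in MDA-MB-231, and for the line differences 21 to 25 (EglN2) and 33 to 35 (KDM5A). These ranges are to be read beside the shares of all genes in the main fits, given above with each comparison. With the replicate block 26 and 28 members were called for the siRNAs in 293T (39.98% and 39.3% of all genes). In MDA-MB-231 they were 25 and 28 (43.9% and 44.96%). For the shRNAs it gave 26 and 24 in 293T (41.2% and 37.7%), and 34 and 37 in MDA-MB-231 (54.8% and 58.6%). In the EglN2 fits with 293T the block also left out the unnumbered control, so the effects of these 2 changes are not separated. The block gave 31 and 32 between the shRNAs (48.2% and 56.2% of all genes) and 23 and 35 for the line differences (34.6% and 43.4%). It gave 37 and 37 for the control lines (79.6% and 81.8%), and 0 between the siRNAs of either line (0.0611% and 0.0132%).

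For 130 results on named members, 2160 of 2230 values under an alternative kept their side of the threshold, and their direction where called. Another 44 lost the call, 23 gained it, and 3 turned sign with a call in the main fit or the alternative. A turn of sign where neither was called was not counted. The 3 came from total counts without a scaling factor: LDHA with siEglN2-1 in MDA-MB-231 at 0.0055 (adjusted p = 0.759, edgeR), PGK1 with siEglN2-2 there at 0.0489 (adjusted p = 0.0113), and GAPDH with shKDM5A-1 in 293T at -0.0038 (adjusted p = 0.878). The cause was not tested. The split of EglN2 calls in MDA-MB-231 also moved with scaling, as given with it. Members of a few CPM (CA9, ALDOC, STC2, ADM in 293T) are limited by depth, and small changes such as those of GAPDH in 293T by the scaling.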
